A study of Mus musculus with 4 samples.

Results

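The 47 genes described here encode the mitochondrial carriers of the mouse, the protein-coding genes named Slc25a followed by a number, out of 21887 protein-coding genes in the nuclear chromosomes of the table. They were chosen by symbol alone, from RefSeq genes on GRCm38.p6, of which mm10 is the browser name, and no measured value entered the choice. Earlier results of these data were known when the choice was made. Open chromatin had been measured by ATAC-seq, in which the Tn5 transposase inserts sequencing adapters into accessible DNA, in haematopoietic stem cells (HSCs) from the bone marrow of 8-week-old male wild-type C57BL/6 mice. Marrow was flushed from femora and tibia that had been pooled. Cells in the LSK+CD34-CD48-Flt3-Slam1+ gate were sorted by the surface protein CD93 into a CD93-positive and a CD93-negative fraction, and the labels name no treatment of either. With 2 libraries a fraction and no label that ties a library to a mouse, the spread within a fraction may be technical only.

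Mitochondrial carriers are small proteins of the inner mitochondrial membrane that move metabolites between cytosol and matrix. They exchange ADP for ATP, bring in the phosphate used by ATP synthase, and carry citrate, amino acids, nucleotides, cofactors, glutathione and iron. Many have a close paralogue used in another tissue, and HSCs, known for low mitochondrial respiration, depend on mitochondrial metabolism when they leave quiescence.

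The deposited data are lists of peak summits, 1 list per library, each summit with a position and a score, the −log10 of its p-value or q-value (which of them is not stated). A gene is called listed in a library when at least 1 summit of that library lay within 1000 bp of either end of the gene. List lengths were 21 summits (CD93-positive replicate 1), 711 (CD93-positive replicate 2), 7989 (CD93-negative replicate 1) and 2755 (CD93-negative replicate 2). Read depth is unknown, and scores are not scaled between libraries. Of 14 HSC marker genes, only Tal1 and Lyl1 were listed, in CD93-negative replicate 1, where 32.2% of all protein-coding genes were. None of the 4 B cell, 4 T cell, 5 erythroid and megakaryocyte or 5 endothelial and stromal markers was listed in any library. Among 6 granulocyte and monocyte markers, S100a8 was listed in both CD93-negative libraries and S100a9 in CD93-negative replicate 1 alone. The gate's identity can thus hardly be checked in these lists.

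The promoters below are shown because most of them carry sites that enter the comparison of the fractions, though not all such sites are printed. The first 5 are those of carriers for which summits of at least 2 libraries fell inside the RefSeq promoter window of 300 bases (250 before the start and 50 after it). Those of Slc25a5 and Slc25a1 are given for contrast, since neither of these widely used carriers was listed anywhere. They were chosen after their values were seen. Sequences run 5′ to 3′ on the strand of the gene, on GRCm38.p6, and capitals mark the short motifs found in them, named in the text that follows.
Slc25a3, chr10:91123918-91124217, minus strand: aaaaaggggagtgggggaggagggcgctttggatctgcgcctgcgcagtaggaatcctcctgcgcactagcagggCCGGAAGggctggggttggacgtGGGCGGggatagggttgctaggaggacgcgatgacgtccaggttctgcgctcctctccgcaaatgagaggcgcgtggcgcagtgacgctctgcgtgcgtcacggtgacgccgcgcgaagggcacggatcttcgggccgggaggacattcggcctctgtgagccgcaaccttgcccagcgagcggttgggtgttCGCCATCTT
Slc25a42, chr8:70212232-70212531, minus strand: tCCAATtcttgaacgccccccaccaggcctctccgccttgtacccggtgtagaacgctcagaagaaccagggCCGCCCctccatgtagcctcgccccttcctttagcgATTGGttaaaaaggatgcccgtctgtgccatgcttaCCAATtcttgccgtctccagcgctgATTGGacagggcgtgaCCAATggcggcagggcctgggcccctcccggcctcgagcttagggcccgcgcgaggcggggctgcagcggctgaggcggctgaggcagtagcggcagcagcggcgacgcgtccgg
Slc25a40, chr5:8422588-8422887, plus strand: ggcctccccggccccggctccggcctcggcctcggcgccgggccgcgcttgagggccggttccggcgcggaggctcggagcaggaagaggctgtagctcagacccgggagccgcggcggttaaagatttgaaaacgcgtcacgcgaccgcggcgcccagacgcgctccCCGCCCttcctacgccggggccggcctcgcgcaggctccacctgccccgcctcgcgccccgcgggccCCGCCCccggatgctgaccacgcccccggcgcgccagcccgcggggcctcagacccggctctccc
Slc25a28, chr19:43674832-43675131, minus strand: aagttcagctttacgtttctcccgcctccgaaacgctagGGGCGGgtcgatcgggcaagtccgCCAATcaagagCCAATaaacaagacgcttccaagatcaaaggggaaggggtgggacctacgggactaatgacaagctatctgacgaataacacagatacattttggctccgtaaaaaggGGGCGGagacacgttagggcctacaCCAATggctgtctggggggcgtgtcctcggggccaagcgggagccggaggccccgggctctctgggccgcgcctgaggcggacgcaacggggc
Slc25a36, chr9:97110992-97111291, minus strand: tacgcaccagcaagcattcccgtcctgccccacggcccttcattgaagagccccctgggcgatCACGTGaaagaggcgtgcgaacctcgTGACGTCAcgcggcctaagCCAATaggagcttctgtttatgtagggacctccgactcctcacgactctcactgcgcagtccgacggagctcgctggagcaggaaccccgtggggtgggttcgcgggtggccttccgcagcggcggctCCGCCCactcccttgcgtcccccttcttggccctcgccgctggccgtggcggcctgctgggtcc
Slc25a5, chrX:36795347-36795646, plus strand: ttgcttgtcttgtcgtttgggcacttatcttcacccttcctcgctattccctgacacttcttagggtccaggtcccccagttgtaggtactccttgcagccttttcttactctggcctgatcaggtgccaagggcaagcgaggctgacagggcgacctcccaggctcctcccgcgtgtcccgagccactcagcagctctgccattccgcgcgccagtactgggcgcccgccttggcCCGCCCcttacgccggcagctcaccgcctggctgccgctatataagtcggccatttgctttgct
Slc25a1, chr16:17928170-17928469, minus strand: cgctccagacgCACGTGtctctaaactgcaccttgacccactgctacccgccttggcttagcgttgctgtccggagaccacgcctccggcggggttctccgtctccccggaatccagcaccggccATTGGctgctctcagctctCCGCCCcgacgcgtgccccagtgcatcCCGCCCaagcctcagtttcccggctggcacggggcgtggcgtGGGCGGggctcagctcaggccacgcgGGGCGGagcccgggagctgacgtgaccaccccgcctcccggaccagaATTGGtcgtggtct

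Open sites at carrier genes were found in 3 of the 4 libraries. In CD93-negative replicate 1, 24 of the 47 carriers were listed (51.1%), where 32.2% of all protein-coding genes were. In CD93-negative replicate 2, 10 were listed (21.3%, against 12.9% of all genes). In CD93-positive replicate 2, 4 were listed (8.51%, against 3.22% of all genes), and in CD93-positive replicate 1, whose list reached 0.0183% of all genes, none was. Each share was thus above that of all genes in the 3 longer lists. The group means were 2.00 ± 2.83 carriers (SD, n = 2) in the CD93-positive and 17.0 ± 9.90 (SD, n = 2) in the CD93-negative fraction. Both CD93-positive values lay below both CD93-negative values, as did the lengths of the lists.

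**Figure D1:**
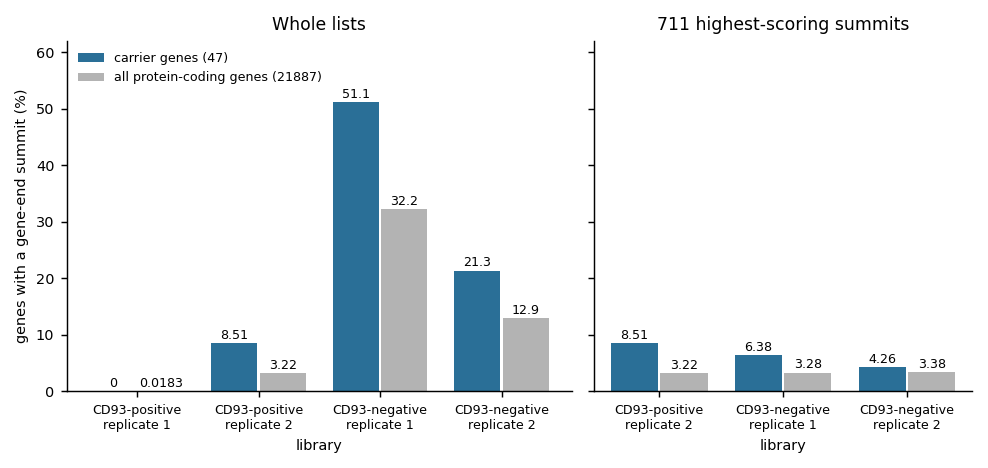
Bars give the percentage of genes with a summit within 1000 bp of either gene end, for the 47 carriers (blue) and for all 21887 protein-coding genes (grey), in each library. On the left the whole lists are used, where the carriers reach 51.1% in CD93-negative replicate 1; on the right the 711 highest-scoring summits of the 3 longer lists are used, where the carriers stand at 8.51%, 6.38% and 4.26%.

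With lists of equal length the 3 longer lists did not keep that order. CD93-positive replicate 1, with 21 summits and 0 carriers, could not be brought to that length, so the comparison rests on 1 CD93-positive library. Among the 711 highest-scoring summits, CD93-positive replicate 2 listed 4 carriers, CD93-negative replicate 1 listed 3 (6.38%, against 3.28% of all genes) and CD93-negative replicate 2 listed 2 (4.26%, against 3.38%). These were Slc25a3, Slc25a32, Slc25a40 and Slc25a42 in the first, Slc25a3, Slc25a32 and Slc25a33 in the second, and Slc25a41 and Slc25a42 in the last. With CD93-negative replicate 1 reduced to 2755 summits, its carriers numbered 11 against 10 in replicate 2, each where 12.9% of all genes were listed. A difference between the fractions in the number of carriers was therefore not detectable apart from the length of the lists.

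By gene, 22 carriers were listed in no library, 15 in 1, 7 in 2 and 3 in 3, and 53.2% of the carriers were listed in at least 1 library, where 32.4% of all genes were. Both CD93-negative libraries listed 9 carriers (19.1%, against 12.7% of all genes). Of these, 3 were also in CD93-positive replicate 2 (6.38%, against 2.78%) and 6 were in no CD93-positive library (12.8%, against 9.95%). The 6 were Slc25a25, Slc25a28, Slc25a36, Slc25a38, Slc25a44 and Slc25a51. For each of them the exact permutation test on presence (two-sided) gave p = 0.33, and no smaller p exists with 2 libraries in each fraction, so no carrier could pass. Without CD93-negative replicate 2 the count with that pattern was 20 (against 29.0% of all genes), and without CD93-positive replicate 2 it was 9 (12.7%). A further 14 carriers were listed in CD93-negative replicate 1 alone (29.8%, against 19.0%).

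**Figure D2:**
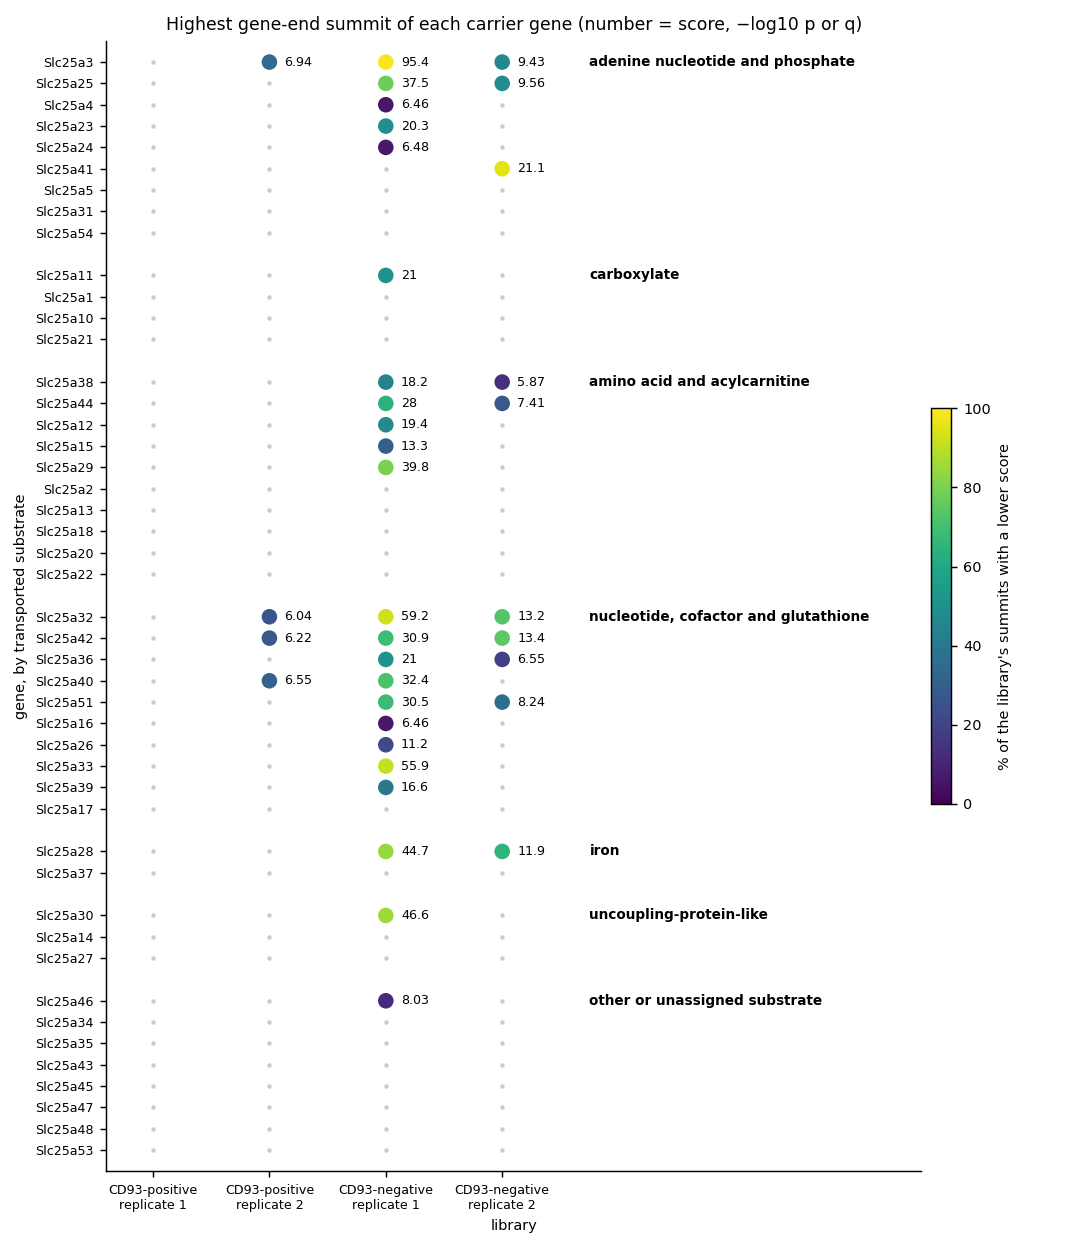
Each row is a carrier gene (1 of the 47 is not shown), grouped by transported substrate, and each column a library; a coloured point marks a gene-end summit, with its highest score printed beside it and the colour giving the percentage of that library's summits with a lower score. Small grey points mark genes with no gene-end summit. The CD93-positive replicate 1 column holds no coloured point, and the nucleotide, cofactor and glutathione group is the most filled with them.

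The ADP/ATP and phosphate carriers supply oxidative phosphorylation. Slc25a3 (gene ID 18674, chromosome 10, 91116574 to 91124046), the phosphate carrier that feeds ATP synthase, had scores of 6.94 in CD93-positive replicate 2, 95.4 in CD93-negative replicate 1 and 9.43 in CD93-negative replicate 2, and no summit in CD93-positive replicate 1. Its site was the highest-scoring of all carriers in CD93-negative replicate 1, rank 72 of 7989, and of middle rank in replicate 2, 1461 of 2755. The summits of the 3 lists lay 70, 87 and 72 bp upstream of the start, within 17 bp of each other. The promoter printed above holds an ETS, a GC-box and a YY1 match, the last on the reverse strand at its 3′ edge. Among the ADP/ATP carriers, Slc25a4 (Ant1), the main isoform of heart and skeletal muscle, had a score of 6.46 in CD93-negative replicate 1 only, a value that 6.16% of that list lay below. Slc25a5 (Ant2), the isoform of most proliferating cells, and Slc25a31 (Ant4), that of the testis, were not listed. In CD93-negative replicate 1 the nearest summit lay 9234 bp from Slc25a5, and in replicate 2 it lay 18633109 bp from it.

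The calcium-regulated ATP-Mg/phosphate carriers adjust the adenine nucleotide pool of the matrix. Slc25a25 (chr2:32414487-32451470) had scores of 37.5 and 9.56 in CD93-negative replicates 1 and 2, at sites 666 and 654 bp upstream of its start, and a second summit of score 14.6 only 6 bp downstream of the start in replicate 1. Slc25a23 and Slc25a24 had scores of 20.3 and 6.48 in CD93-negative replicate 1 alone. The testis relative Slc25a54 was not listed. Slc25a41, also found mainly in testis, was listed only in CD93-negative replicate 2, with a score of 21.1, but that summit lay 941 bp from the carrier and 324 bp from Khsrp, which encodes an RNA-binding splicing regulator. In CD93-negative replicate 1 and CD93-positive replicate 2 the same site lay 1037 and 1031 bp from Slc25a41, just outside the window, with scores of 81.5 and 15.6. Among the carriers listed in CD93-negative replicate 1 the one nearest to the edge of the window was Slc25a23, 700 bp from its gene end. Without Slc25a41, CD93-negative replicate 2 listed 9 carriers, and all 9 were also in replicate 1.

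Carriers of nucleotides, cofactors and glutathione made up the group with most listed members. In CD93-negative replicate 1, 10 of 11 were listed, in CD93-negative replicate 2, 4 of 11, and in CD93-positive replicate 2, 3 of 11, beside 32.2%, 12.9% and 3.22% of all genes. The carboxylate group had 1 of 4, 0 of 4 and 0 of 4, and with 4 genes its counts cannot be set apart from those shares. Slc25a32 (chr15:39091230-39112720), the folate and flavin carrier, scored 6.04 in CD93-positive replicate 2, 59.2 in CD93-negative replicate 1 and 13.2 in its second replicate. Its summits lay 7 to 91 bp outside the gene, in the 153 bp that separate it from Dcaf13, a gene of ribosome biogenesis. Both CD93-negative summits were nearer to Dcaf13, so the sites of the genes cannot be told apart. Slc25a42 (chr8:70184340-70212281), a coenzyme A carrier, scored 6.22 in CD93-positive replicate 2, 30.9 in CD93-negative replicate 1 and 13.4 in its second replicate, with no other coding gene within reach. The summits lay 158, 71 and 227 bp upstream of its start.

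Slc25a40 (chr5:8422730-8454839), a glutathione carrier, was the 1 carrier of CD93-positive replicate 2 that CD93-negative replicate 2 lacked. Its scores were 6.55 in CD93-positive replicate 2 and 32.4 in CD93-negative replicate 1, at summits 3 bp apart, 91 and 94 bp upstream of the start in the promoter table. Only 4 bp separate it from Dbf4, which encodes the activator of the replication kinase Cdc7, and the summits lay 22 and 19 bp from that gene. Its paralogue Slc25a39 was in CD93-negative replicate 1 alone, with a score of 16.6 near the outer end of the gene. A second summit of score 21.3 lay inside Slc25a39, 1162 bp from that end and at 102407513, beside the start at 102407517 given in the promoter table.

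The remaining cofactor carriers were CD93-negative sites only. Slc25a36 (chr9:97075281-97111041), a pyrimidine nucleotide carrier, had scores of 21.0 and 6.55 in CD93-negative replicates 1 and 2, at summits 6 bp apart and 141 and 147 bp upstream of the start. Its paralogue Slc25a33 scored 55.9 in replicate 1, rank 706, the highest score of any carrier that replicate 2 lacked. Slc25a51 (chr4:45395923-45408917), the NAD carrier, had scores of 30.5 and 8.24, at summits 121 and 164 bp inside the gene. Slc25a26 (S-adenosylmethionine) and Slc25a16 (linked to coenzyme A) scored 11.2 and 6.46 in replicate 1 alone. Slc25a17, a peroxisomal member, was the 1 gene of the group listed nowhere.

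Of the amino acid and acylcarnitine carriers, 5 of 10 were listed in CD93-negative replicate 1, 2 of 10 in CD93-negative replicate 2 and none in a CD93-positive library. Of all genes, 32.2% and 12.9% were listed in the CD93-negative libraries and 3.22% in CD93-positive replicate 2. With 10 genes the counts cannot be set apart from those shares. Slc25a38 (chr9:120110377-120126093), the glycine carrier needed for haem synthesis, had scores of 18.2 and 5.87, but the summits lay 359 bp apart, 340 bp downstream and 19 bp upstream of the start. Slc25a44 (chr3:88410494-88425141), the branched-chain amino acid carrier, scored 28.0 at one end in replicate 1. At its other end, 48 bp from the kinetochore gene Pmf1, summits of 12.5 and 7.41 in replicates 1 and 2 lay 145 and 301 bp from Pmf1 and farther from the carrier. Slc25a12 (aralar), the aspartate/glutamate carrier of brain and muscle, scored 19.4 in replicate 1, and its liver paralogue Slc25a13 (citrin) was not listed. Slc25a15, an ornithine carrier, scored 13.3 there and its paralogue Slc25a2 was not listed. Slc25a29, a basic amino acid carrier, scored 39.8. The carnitine/acylcarnitine carrier Slc25a20 and the glutamate carriers Slc25a18 and Slc25a22 were listed nowhere.

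Of the carboxylate carriers, Slc25a11, the 2-oxoglutarate/malate carrier, had a score of 21.0 in CD93-negative replicate 1. That summit lay 30 bp upstream of the start in the promoter table and 161 bp from Rnf167, a ubiquitin ligase gene that overlaps it. The citrate carrier Slc25a1, the dicarboxylate carrier Slc25a10 and the oxodicarboxylate carrier Slc25a21 were listed nowhere, and the nearest summit to Slc25a1 lay 3193 bp away in CD93-negative replicate 1.

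Of the 2 iron importers, 1 was listed. Slc25a28 (mitoferrin 2, chr19:43663801-43675006), used in most tissues, had scores of 44.7 and 11.9 in CD93-negative replicates 1 and 2, at 211 and 133 bp upstream of the start. Slc25a37 (mitoferrin 1), that of erythroid cells, was not listed, and its nearest summit lay 447138 bp away in replicate 1. Among the uncoupling-protein-like members, Slc25a30 scored 46.6 in replicate 1 and Slc25a14 and Slc25a27 were not listed. Of the 8 members with another or no assigned substrate, Slc25a46, an outer-membrane member with a part in mitochondrial dynamics, was the 1 listed, with a score of 8.03 in replicate 1 at 644 bp inside the gene. Slc25a34, Slc25a35, Slc25a43, Slc25a45, Slc25a47, Slc25a48 and Slc25a53 had none. Of all genes, 32.4% were listed in at least 1 library. Groups of 2, 3 and 8 genes are too small to set their counts apart from that share.

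Widely used carriers were listed more often than tissue-restricted ones in each of the 3 longer lists. Of 21 carriers taken as widely used, 16 (76.2%) were listed in CD93-negative replicate 1, 7 (33.3%) in CD93-negative replicate 2 and 3 (14.3%) in CD93-positive replicate 2. Of the 3, Slc25a32 and Slc25a40 shared the summit with Dcaf13 and Dbf4. Of the 7, Slc25a32 and Slc25a44 had it nearer to Dcaf13 and Pmf1, and of the 16, Slc25a32 and Slc25a11 had it nearer to Dcaf13 and Rnf167. Of 11 taken as tissue-restricted, the counts were 3 (27.3%), 2 (18.2%) and 0, near the shares of all genes, which were 32.2%, 12.9% and 3.22%. Of the 2 in CD93-negative replicate 2, 1 was Slc25a41, at the Khsrp site. Of 15 assigned to neither, they were 5 (33.3%), 1 (6.67%) and 1 (6.67%). With 711 summits per list the widely used carriers numbered 3 in CD93-positive replicate 2, 3 in CD93-negative replicate 1 and 0 in CD93-negative replicate 2, where the 1 tissue-restricted carrier was again Slc25a41. At that length 3.22%, 3.28% and 3.38% of all genes were listed. The order thus did not hold in that last library at equal length. The 5 widely used carriers listed nowhere were Slc25a1, Slc25a5, Slc25a17, Slc25a20 and Slc25a22. Of 16 paralogue pairs, 6 had both genes listed, each in at least 1 library, 4 had neither and 6 had 1. Both need not be in the same library, as Slc25a23 was in CD93-negative replicate 1 alone and Slc25a41 in replicate 2 alone. Some genes, such as Slc25a24, stand in several pairs, and 53.2% of all carriers were listed in at least 1 library. In the pairs with 1 listed gene, it was Slc25a4, Slc25a12, Slc25a24, Slc25a28, Slc25a15 and Slc25a30. Listing did not follow breadth in every pair, since muscle-type Slc25a4 was listed and Slc25a5 was not. The classes were assigned from general knowledge of the carriers, with earlier results of these data known. No test of the difference between the classes was made.

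**Figure D3:**
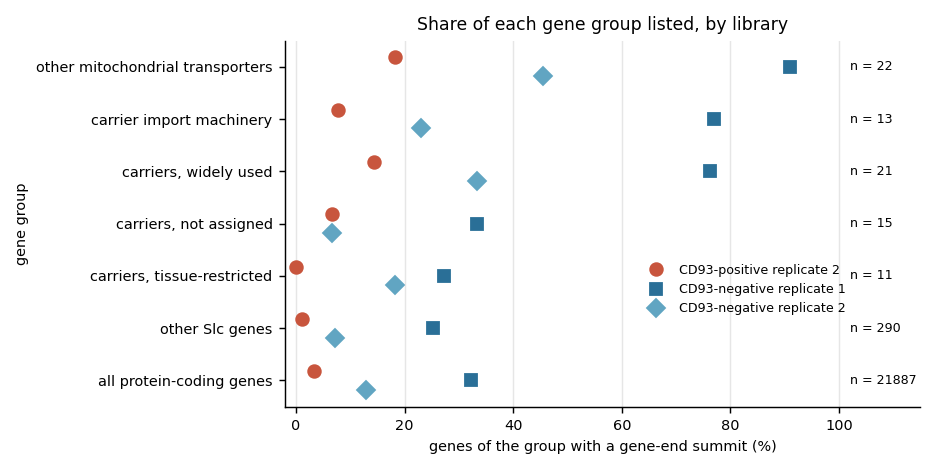
Points give the percentage of each gene group with a gene-end summit in the 3 longer lists (red circles, CD93-positive replicate 2; dark blue squares, CD93-negative replicate 1; light blue diamonds, CD93-negative replicate 2), with the number of genes at the right. Widely used carriers lie at 14.3%, 76.2% and 33.3%, and tissue-restricted carriers at 0%, 27.3% and 18.2%.

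Other transporters of the mitochondrial membranes had higher shares listed than the carriers in each of the 3 longer lists, and other solute carriers had lower ones, with no test of these differences. Of 22 such transporters, 20 (90.9%) were listed in CD93-negative replicate 1, 10 (45.5%) in CD93-negative replicate 2 and 4 (18.2%) in CD93-positive replicate 2. Of the 4, Mpc2, a subunit of the pyruvate carrier, scored 10.1 in CD93-positive replicate 2, then 94.1 and 19.5 in the CD93-negative pair. Vdac3, an outer-membrane channel, scored 8.29, 22.3 and 6.55 in that order, and Mcur1, a regulator of calcium uptake, 7.14, 38.4 and 12.0. Among those in both CD93-negative libraries only, Smdt1 and Mcu, both parts of the uniporter, scored 60.0 and 15.0, and 37.8 and 11.0. The sideroflexin genes Sfxn2 and Sfxn5 scored 57.1 and 10.8, and 10.9 and 7.80. Of 13 genes of the machinery that imports carriers into the inner membrane, 10 (76.9%) were listed in CD93-negative replicate 1, 3 (23.1%) in CD93-negative replicate 2 and 1 (7.69%) in CD93-positive replicate 2. The 1 was Timm13, a chaperone of the intermembrane space, with scores of 4.35 in CD93-positive replicate 2 and 35.5 in CD93-negative replicate 1, and Tomm40, the channel of the outer membrane, had 68.7 and 15.6 in the CD93-negative pair, where the receptor Tomm70a had 27.1 and 8.17. Family members under other symbols were listed in CD93-negative replicate 1 only, 3 of 5, namely Ucp2, Mtch1 and Mtch2 with scores of 23.1, 30.5 and 34.1, named after their values were seen. Of 290 other Slc genes, most of them transporters of the plasma membrane, 73 (25.2%), 21 (7.24%) and 3 (1.03%) were listed in CD93-negative replicate 1, CD93-negative replicate 2 and CD93-positive replicate 2. The shares of all genes in the same order were 32.2%, 12.9% and 3.22%.

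Where strand was known, the counted sites lay nearer the 5′ than the 3′ end of the gene. Of the 47 carriers, 36 had an entry in the RefSeq promoter table, which gives the strand. For all 18 such carriers listed in CD93-negative replicate 1 the highest summit was nearer the 5′ end, as it was for 96.7% of all listed genes with an entry. The same held for all 6 in CD93-negative replicate 2 and all 3 in CD93-positive replicate 2. It held for 96.7% and 97.7% of all listed genes with an entry in those libraries. Not all lay at the start itself, since those of Slc25a39, Slc25a23 and Slc25a25 lay 1060, 746 and 666 bp upstream in CD93-negative replicate 1 and that of Slc25a38 lay 340 bp downstream. The median distance to the nearer gene end was 73.0 bp in CD93-negative replicate 1, against 76.0 bp for all listed genes, 156 against 114 bp in CD93-negative replicate 2 and 13 against 114 bp in CD93-positive replicate 2. Summits of both CD93-negative libraries at the same carrier lay 6 to 359 bp apart, with a median of 43.0 bp over 9 carriers, and the 4 CD93-positive sites each had a summit of CD93-negative replicate 1 at most 87 bp away. The highest summit was shared with the end of another coding gene for 3 of 24 carriers in CD93-negative replicate 1 (12.5%, against 32.3% of all listed genes), 3 of 10 in CD93-negative replicate 2 (30.0%, against 38.5%) and 2 of 4 in CD93-positive replicate 2 (50.0%, against 33.2%).

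**Figure D4:**
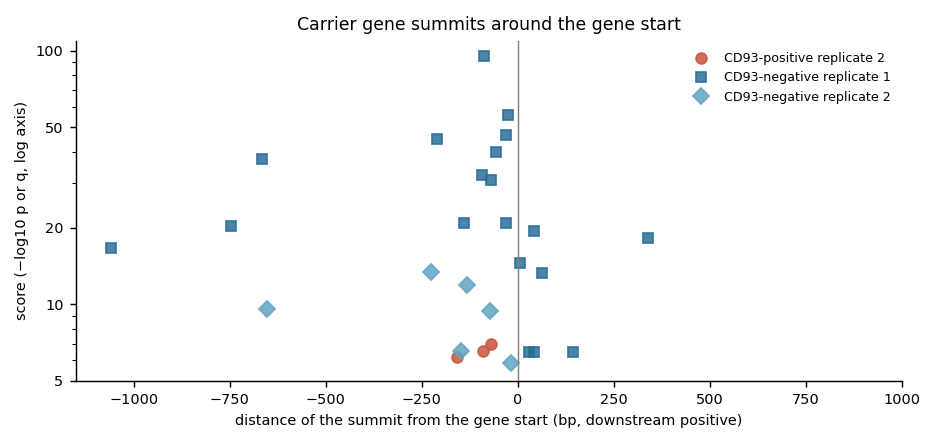
Each point is a gene-end summit of a carrier with a RefSeq start, placed by its distance from the start in bp (upstream negative) and its score on a log axis, coloured by library. Most points lie between 250 bp upstream and the start, and the exceptions include Slc25a25 at 666 and 654 bp upstream.

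Median scores of listed carriers were close to those of all listed genes in the CD93-negative libraries and lower in CD93-positive replicate 2. In CD93-negative replicate 1 the median highest score of the 24 carriers was 24.5 (range 6.46 to 95.4), against 23.9 for all 7042 listed genes, and in CD93-negative replicate 2 it was 9.50 (5.87 to 21.1) against 10.1. In CD93-positive replicate 2 the 4 carriers had a median of 6.39 (6.04 to 6.94) against 7.95. All 4 lay below that all-gene median, at ranks 461 to 524 of 711. Carriers of CD93-negative replicate 1 that replicate 2 also listed had a median of 30.9 in replicate 1 (n = 9, 18.2 to 95.4), and those it lacked 19.4 (n = 15, 6.46 to 55.9). The ranges overlapped, and the medians over all genes were 36.9 and 17.9.

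Promoters of listed carriers were richer in CpG. The 300-base promoters held a median of 25.0 CpG in the 18 listed carriers with an entry (range 12 to 47) and 13.5 in the 18 unlisted (1 to 30). Over all genes with an entry the medians were 23.0 in the 5850 listed and 6.00 in the 11642 unlisted, so listed and unlisted carriers differed in the direction seen across the genome, and unlisted carriers overlapped widely with listed ones. Median GC content was 65.7% and 58.5% in the same carriers, against 62.3% and 52.0% in all genes. Widely used carriers had a median of 24.0 CpG (n = 15), tissue-restricted ones 16.0 (n = 8) and those assigned to neither 14.0 (n = 13).

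**Figure D5:**
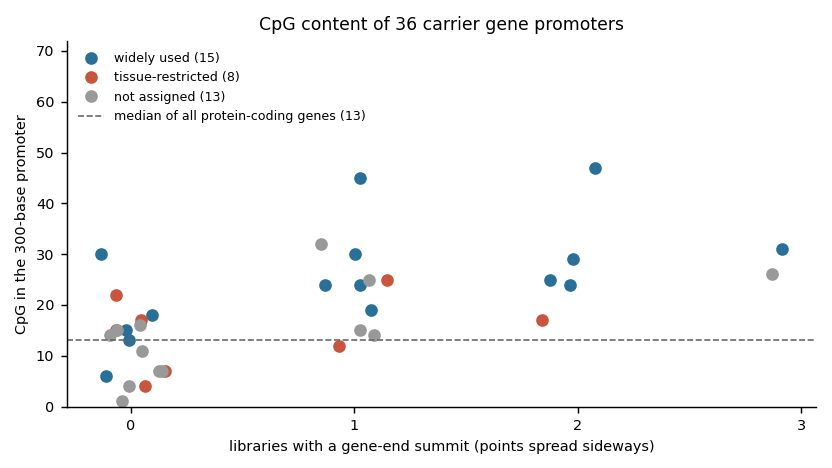
Each point is the 300-base promoter of 1 of 36 carriers, placed by the number of libraries that listed the gene and by its CpG count, coloured by breadth of use; the dashed line is the median of all protein-coding genes, 13. Promoters of carriers listed in 2 or 3 libraries hold 17 to 47 CpG, and those of unlisted carriers 1 to 30.

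Motifs were searched on both strands of 1 promoter per gene. The GC box of SP and KLF factors (GGGCGG) was in 17 of 18 listed and 13 of 18 unlisted carrier promoters, and in 71.8% and 33.5% of all listed and unlisted genes. The ETS motif (CCGGAAG) was in 4 and 3, against 22.9% and 6.39% of genes, and the CCAAT box (CCAAT) in 10 and 7, against 42.4% and 37.6%. The YY1 motif (AAGATGGCG) was found in Slc25a3 alone and the cyclic AMP response element (TGACGTCA) in Slc25a36 alone, each held by 1.92% and 2.33% of all promoters. The NRF1 motif (CGCATGCG) was in none of the 36, against 2.55% of all promoters. The E-box (CACGTG) was in 2 listed and 4 unlisted carrier promoters, against 11.6% and 6.06% of listed and unlisted genes. The nuclear receptor motif (AAGGTCA) was in 0 and 1, against 2.5% and 4.85%. The TATA box (TATAAA) was in 0 and 1, against 5.79% and 17.1%. In the printed promoters, that of Slc25a42 held 5 CCAAT matches, a number reached by 0.343% of all promoters, and that of Slc25a28 held 3. That of Slc25a40 held 2 GC boxes and no other match, and that of Slc25a36 the cyclic AMP response element, an E-box, a CCAAT box and a GC box. The unlisted Slc25a1 promoter held 4 GC boxes, 2 CCAAT boxes and an E-box, and that of Slc25a5 a single GC box. No matches of different motifs overlapped in the printed promoters, and a match is no evidence of binding.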

How the data were processed

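ATAC-seq summits of 4 HSC libraries, 2 a fraction, were analysed and grouped by sample title. Replicate numbers within the summit names differ from the titles, which were followed. Bowtie2, MACS2 and the build mm10 are named per the submitters' processing notes, while versions, read filters and the peak threshold are not stated there. The authors deposited 1 summit list per library. Column 5 of each, as deposited, was read as the −log10 that MACS2 gives a summit for its p-value or q-value. It depends on each library's depth and was used to rank summits within a list, and as a minimum of 5 or 10 in the alternatives. As scores are not scaled between libraries, such a minimum does not cut the lists alike.

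Positions are 1-based. Genes were matched to summits within 1000 bp of either gene end, with pandas 2.3.3 and numpy 2.4.6 under Python 3.11.15, and drawn with matplotlib 3.10.9. The matching step was tested on simulated data. The RefSeq gene table gives no strand; starts, strands and sequences came from the RefSeq promoter table of GRCm38.p6, which had entries for 36 of 47 carriers. Where a gene had several entries, the 1 nearest its outer end gave the promoter sequence. Distances from the start used the entry nearest the summit, and the alternative by gene starts used every entry. The carriers without an entry include Slc25a2, Slc25a26, Slc25a27, Slc25a32, Slc25a35, Slc25a37, Slc25a41, Slc25a44, Slc25a46 and Slc25a51.

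The carriers, classes, pairs, motifs and lists were chosen with earlier results of these data known. Values were given in full for carriers listed in a CD93-positive library or in both CD93-negative libraries, for unequal paralogue pairs and for neighbours sharing a summit. Of the other lists, genes listed in a CD93-positive library and the next 6 by their lower CD93-negative score were named. Counts are set beside the share of all genes; no test over gene sets was made. Counts cover all genes, but the values of 2 genes are not reported here. Presence per gene was compared by exact permutation. Alternatives covered windows, gene starts, gene bodies, score minimums, list lengths, the nearest gene alone, leaving libraries out in turn, and a replicate block.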

Additional observations from a re-analysis of the deposited data

How the results depend on the processing

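The counts depended on how much of each list was used. With a score of at least 10, carriers numbered 0 in CD93-positive replicate 2 (0.991% of all genes) and 4 in CD93-negative replicate 2 (6.50%). Both CD93-negative libraries then shared 3 (6.47%), all 3 in no CD93-positive one (5.62%). With 711 summits per list, CD93-negative replicates 1 and 2 held 3 and 2 carriers (3.28% and 3.38% of all genes), and 0 were in both (1.75%), hence 0 with the pattern of both CD93-negative and no CD93-positive library (0.631%). With CD93-negative replicate 1 reduced to 2755 summits it held 11 (12.9%), and that pattern was met by 3 (5.71%). Counting only gene starts, for 36 carriers, left 6 in CD93-negative replicate 2, where 14.1% of genes with a known start were listed. Those lost, Slc25a32, Slc25a41, Slc25a44 and Slc25a51, had no entry in the promoter table, and all 6 listed carriers with an entry stayed. Leaving out each library in turn gave 6 to 20 carriers with the pattern, 20 without CD93-negative replicate 2. Windows of 500 and 2500 bp, gene bodies, a score of at least 5 and giving each summit to the nearest gene alone kept every count within 1.5 times. These settings for the carriers in all 3 longer lists were chosen after seeing the data, as were gene starts, gene bodies, the nearest gene and the list of 2755 for those in both CD93-negative libraries, with or without the CD93-positive condition. Summits within 100 bp of each other in those lists were found for 2 of the 3, Slc25a3 and Slc25a32. Giving each summit to the nearest gene took Slc25a32 and Slc25a44 out of the carriers in both CD93-negative libraries (7). With a replicate block, group labels exchanged within a number, the smallest p went from 0.33 to 0.5, and nothing says that the numbers pair the libraries. Read depth and peak widths were not analysed here, so an unlisted carrier is not shown to be closed.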

Other observations

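The 4 carriers on the X chromosome, Slc25a5, Slc25a14, Slc25a43 and Slc25a53, were listed in no library, where 24 of 43 carriers on the autosomes were listed in CD93-negative replicate 1. Over all protein-coding genes, 15.9% of 966 X-linked and 33.3% of 20665 autosomal genes were listed in CD93-negative replicate 1, 2.59% and 13.6% in CD93-negative replicate 2, and 0.414% and 3.39% in CD93-positive replicate 2. The mice were male. Dosage of the X was not tested as a source of this difference.

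Some summits near carriers lay outside the window and closer to an end of a neighbouring gene. Slc25a38 had summits 1616 and 1565 bp away in CD93-negative replicates 1 and 2, with scores of 32.6 and 9.83, that lay 57 and 108 bp from an end of Rpsa, which encodes a protein of the small ribosomal subunit. Both scores were above those of the sites within the carrier's window, 18.2 and 5.87. None of the 22 unlisted carriers had a summit anywhere in the gene body in any library. Over all genes, counting bodies moved the share listed only from 32.2% to 36.7% in CD93-negative replicate 1. In CD93-negative replicate 2 it went from 12.9% to 14.5%, so such summits were uncommon in other genes as well.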
